A study of Mus musculus with 43 samples.

Results

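The circadian clock genes Per1, Per2, Per3, Dbp, Tef, Hlf, Nr1d1, Nr1d2, Arntl and Bhlhe41 were followed by symbol through mouse back skin with and without ultraviolet B light (UVB), the medium-wave part of sunlight that burns skin. All 10 were among the 23256 genes of the deposited table and among the 19170 kept for testing. RNA sequencing measured poly-A RNA in 43 libraries from skin of female mice aged 10 to 13 weeks, in 9 groups from 3 strains and 3 regimens. Acute UVB was 1 dose of 300 mJ/cm2, chronic UVB was 100 mJ/cm2 on each of 5 days, and the third regimen was no UVB. Skin was taken 24 hours after the last dose. NZM is the lupus-prone line NZM2328 named in the series title. The labels define neither WT nor iNZM; in lupus research iNZM usually denotes NZM2328 animals without a working receptor for type I interferon. There were 5 libraries in each of 7 groups and 4 in each of the unexposed iNZM and WT groups. The labels give neither the time of day of the biopsies nor whether each library came from its own animal, so p-values measure the spread between libraries, which may be technical.

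Depth ran from 18493566 to 37756660 reads counted to genes, with a median of 24442363, and no clock gene had under 124 reads in any library. Markers of growing hair set 9 libraries apart. The hair follicle score, which is the mean over 20 hair shaft and inner root sheath genes of log2(value + 1) centred per gene, was 6.28 to 9.29 in those 9 and -3.79 to 3.17 in the other 34. They were NZM library 5 and iNZM libraries 6 and 49 after acute UVB, and NZM libraries 17, 55 and 56 and iNZM libraries 22, 24 and 25 after chronic UVB. No WT library and no unexposed library was among them. Calls that end or appear without these libraries are named with the gene or the comparison.

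The circadian clock is a feedback loop of transcription that runs in nearly every cell with a period of about a day, and skin cells, hair follicles included, carry their own. The protein of Arntl, also called Bmal1, pairs with CLOCK and switches on genes through E-box sequences. Among these genes are Per1, Per2 and Per3, whose proteins feed back on CLOCK and BMAL1. Nr1d1 and Nr1d2 encode the nuclear receptors REV-ERB alpha and beta, which repress Arntl through RRE sequences. Dbp, Tef and Hlf encode the PAR bZIP factors, which activate output genes through D-box sequences, and Bhlhe41 encodes a repressor that competes for E-boxes. Because Arntl runs opposite in phase to Dbp, Nr1d1 and the Per genes, their levels rise and fall at different times of day.

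In build GRCm38 (mm10) the genes lie at chr11:69095217-69109960 (Per1), chr1:91415982-91459324 (Per2), chr4:151003652-151044665 (Per3), chr7:45705088-45710203 (Dbp) and chr15:81802421-81826863 (Tef). Hlf lies at chr11:90336536-90390895, Nr1d1 at chr11:98767932-98775333, Nr1d2 at chr14:18204054-18239127, Arntl at chr7:113207465-113314126 and Bhlhe41 at chr6:145858243-145865558. Of annotated exonic bases, 18.0% of Dbp overlap the antisense gene Sphk2, 8.5% of Nr1d1 the antisense gene Thra, and 19.0% of Bhlhe41 the antisense gene Gm43909. For Tef the share is 2.5% and for Arntl 0.4%. The sources used here do not state whether counting used strand, so reads from these shared stretches cannot be told apart.

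The motifs through which the loop is known to act were searched in the promoters, and 4 promoters that hold one are given here from the RefSeq table of build GRCm38.p6, as 250 bases before to 50 bases after a transcript start, with the motif in capitals. RefSeq promoters were matched for 9 of the 10 genes, all but Per2. The search covered both strands for the E-box CACGTG, the D-box TTATGTAA or TTACGTAA, the RRE TAGGTCA or TGGGTCA, and the cyclic AMP element TGACGTCA, and no matches overlapped each other. Per3 had a D-box at bases 205 to 198 and another at bases 158 to 151 before its start (chr4:151044616-151044915, minus strand). Of 2 Per1 promoters in the table, 1 had an E-box 166 to 161 bases before the start (chr11:69098699-69098998, plus strand), and the first of 2 Tef promoters had one 127 to 122 bases before (chr15:81802423-81802722, plus strand). Of 2 Arntl promoters, 1 had an RRE 30 to 36 bases after its start (chr7:113207261-113207560, plus strand). The other Per1 and Arntl promoters held no motif.
Per3: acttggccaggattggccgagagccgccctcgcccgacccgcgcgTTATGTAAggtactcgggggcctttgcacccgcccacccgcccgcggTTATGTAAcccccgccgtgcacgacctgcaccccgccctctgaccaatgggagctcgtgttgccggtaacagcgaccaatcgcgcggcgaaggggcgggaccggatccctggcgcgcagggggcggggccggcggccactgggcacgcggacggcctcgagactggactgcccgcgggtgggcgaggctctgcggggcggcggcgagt
Per1: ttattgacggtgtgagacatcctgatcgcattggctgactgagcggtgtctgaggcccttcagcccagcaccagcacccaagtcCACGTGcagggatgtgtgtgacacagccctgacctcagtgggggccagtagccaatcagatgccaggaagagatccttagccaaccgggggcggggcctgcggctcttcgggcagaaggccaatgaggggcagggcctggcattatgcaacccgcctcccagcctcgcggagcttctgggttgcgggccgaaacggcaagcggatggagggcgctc
Tef: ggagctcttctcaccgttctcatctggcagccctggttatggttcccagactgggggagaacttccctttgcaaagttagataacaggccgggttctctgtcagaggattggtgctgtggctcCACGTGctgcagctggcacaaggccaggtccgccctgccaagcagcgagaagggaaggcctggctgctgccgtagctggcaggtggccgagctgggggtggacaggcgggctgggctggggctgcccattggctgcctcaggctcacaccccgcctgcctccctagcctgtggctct
Arntl: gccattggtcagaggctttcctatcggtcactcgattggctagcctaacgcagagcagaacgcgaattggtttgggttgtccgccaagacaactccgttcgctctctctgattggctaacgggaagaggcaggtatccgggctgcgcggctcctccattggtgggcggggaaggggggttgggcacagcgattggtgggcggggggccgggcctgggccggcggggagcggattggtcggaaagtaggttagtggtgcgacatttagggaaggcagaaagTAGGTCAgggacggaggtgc
Of 32851 promoters of this length in the table, 7.15% held the E-box, 1.06% a D-box, 6.45% an RRE and 1.79% the cyclic AMP element. The second Tef promoter and the Bhlhe41 promoter also held an E-box, and the Hlf promoter held the cyclic AMP element 9 to 2 bases before the start. The windows of Dbp, Nr1d1 and Nr1d2 held none of these motifs. A match says only that the letters are present.

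Per kilobase of exon, Dbp, Nr1d1 and Tef were the most abundant of the 10 in unexposed skin and Arntl the least abundant. In unexposed NZM skin the level was 933.4 ± 70.2 reads per kilobase (SD, n = 5) for Dbp, 928.2 ± 48.4 for Nr1d1 and 763.2 ± 77.5 for Tef. Nr1d2 and Per1 followed at 545.1 ± 54.0 and 531.9 ± 93.6, and Hlf at 267.5 ± 28.7. Bhlhe41, Per2 and Per3 lay at 129.6 ± 15.7, 119.9 ± 51.8 and 108.9 ± 29.0, and Arntl at 39.0 ± 4.57. For Dbp, Tef, Hlf, Nr1d1 and Nr1d2 the 3 unexposed groups had the 3 highest means of the 9 groups. When the groups were ordered by mean, neighbouring groups overlapped in all but a few places. The gaps without overlap lay between WT after chronic UVB and iNZM without UVB for Tef and Hlf, between NZM and WT without UVB for Hlf, between iNZM and NZM without UVB for Nr1d1, and between NZM and WT after acute UVB for Arntl.

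**Figure D1:**
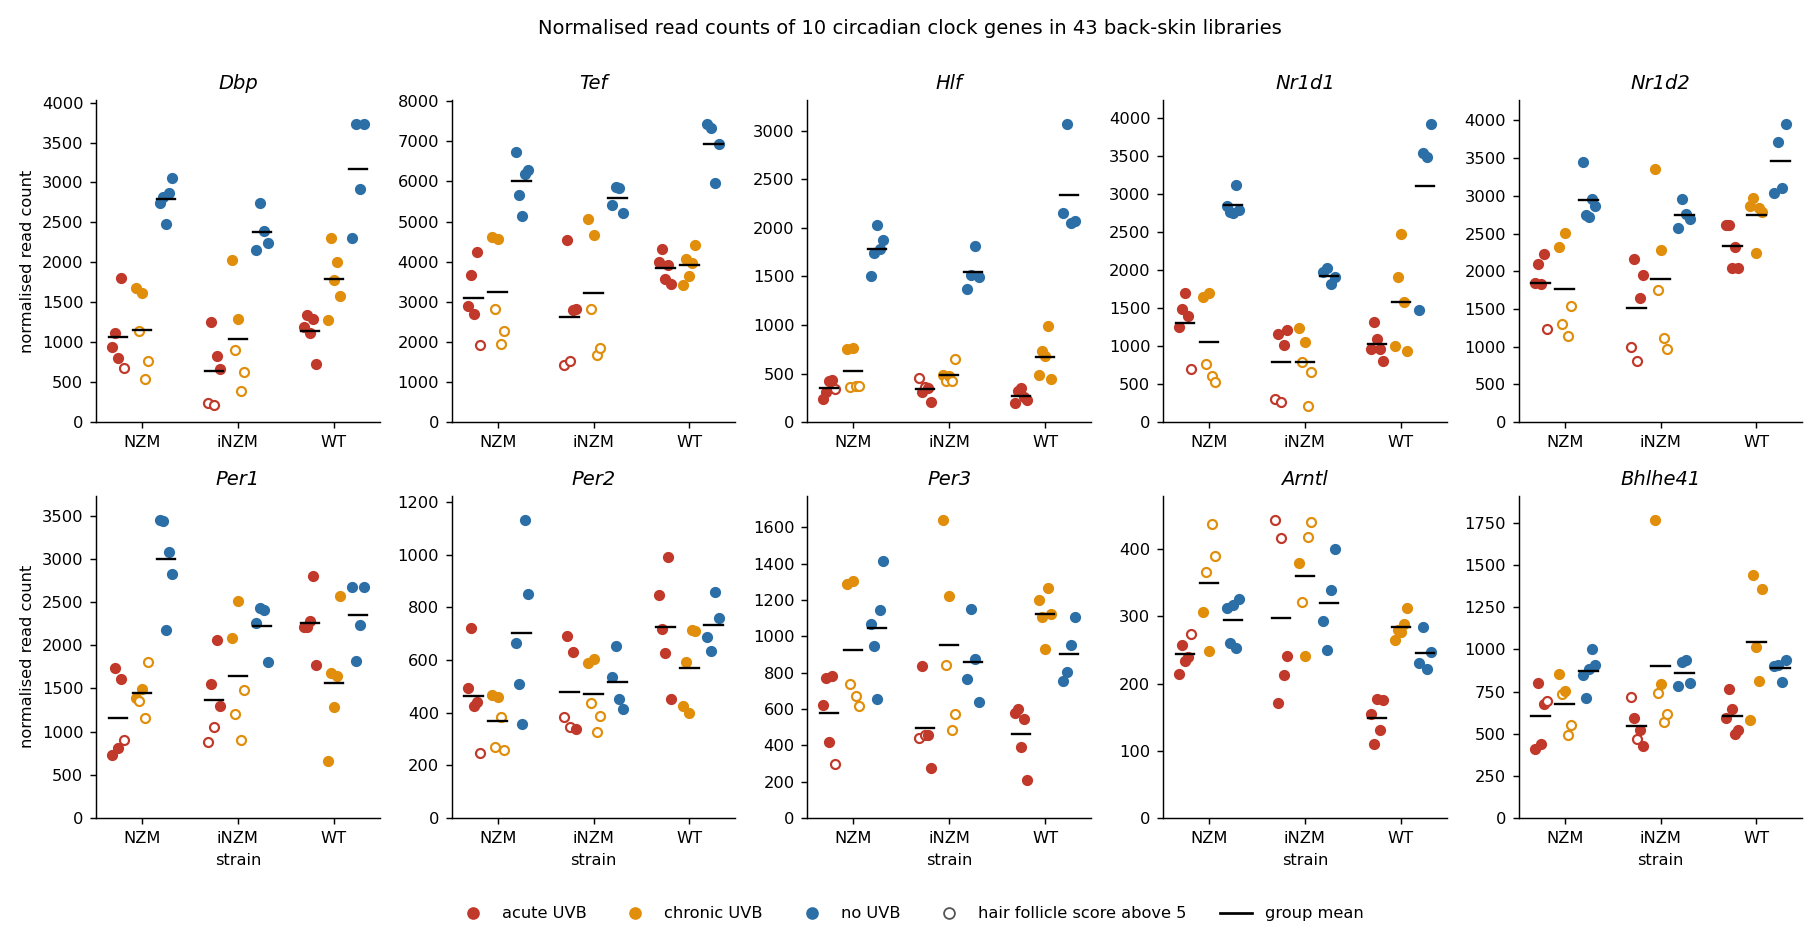
Normalised read count (vertical axes, from 0) of each clock gene in every library, by strain (horizontal axis) and regimen (colour: acute UVB left, chronic UVB middle, no UVB right). Points are libraries, open points are the 9 libraries with a hair follicle score above 5, and black lines are group means. Hlf and Tef show no UVB library, acute or chronic, above the lowest unexposed library.

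Acute UVB was compared with no UVB within each strain to see how the clock genes stood a day after 1 dose. Every called difference was a decrease. Of the 10 genes, 7 fell in NZM skin, where 10.7% of all 19170 genes were called lower, 6 fell in iNZM skin, where 12.4% were, and 6 fell in WT skin, where 11.3% were. The UVB libraries lay below all unexposed libraries for 6 genes in NZM, 6 in iNZM and 8 in WT skin, as 9.91%, 10.4% and 11.5% of all genes did. A gene was called where the limma-trend fit of log2(value + 1) over the 43 libraries gave an adjusted p below 0.05. Dbp, Tef, Hlf and Nr1d1 fell in all 3 strains, as 4.92% of all genes did. The median log2 difference of the 10 was -0.96 in NZM, -0.91 in iNZM and -0.79 in WT skin, against 0.02, 0.00 and 0.00 over all genes tested. In bulk skin, fewer cells of a type and less RNA per cell cannot be told apart. Because the labels give no time of day, a difference after UVB cannot be told apart from one in the hour of sampling. The same holds for every comparison of groups below.

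Chronic UVB was compared with the same unexposed libraries. All called differences were again decreases, for 7 genes in NZM skin (9.78% of all genes were called lower), 5 in iNZM skin (15.7%) and 2 in WT skin (16.8%). UVB libraries lay below all unexposed ones for 6 genes in NZM (6.91% of all genes), 4 in iNZM (10.9%) and 4 in WT skin (15.0%). Hlf and Tef fell in all 3 strains, as 4.11% of all genes did. The medians over the 10 genes were -0.92 in NZM, -0.60 in iNZM and -0.55 in WT skin, against 0.04, 0.02 and 0.03 over all genes. Hlf and Tef were also the only members called lower in all 6 comparisons with no UVB, as 1.54% of all genes were.

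Markers of other cells moved with UVB as well. The summed level of 9 T cell markers was 208 to 680 after acute and 352 to 854 after chronic UVB in NZM skin, against 1462 to 2162 without UVB. In iNZM skin the sums were 185 to 716, 278 to 376 and 1579 to 1953 in that order of regimens, and in WT skin 127 to 459, 173 to 437 and 586 to 1075. These sums did not overlap between UVB and unexposed libraries in any of the 6 pairs, as for Hlf and Tef, and all 9 markers were detected in every group. Scored like the hair follicle markers, T cell markers overlapped in WT skin after acute UVB, at -2.09 to 0.21 against -0.01 to 0.59. The sum over 10 basal and spinous keratinocyte markers was lower after acute UVB, without overlap, in all 3 strains, at 374833 to 608207 against 774633 to 1205809 in NZM, 245269 to 607353 against 738669 to 925819 in iNZM and 210596 to 444752 against 458282 to 828122 in WT skin. After chronic UVB it was 1004496 to 2148192 in WT skin, above the unexposed libraries. The keratinocyte score, built in the same way, overlapped there, at 0.41 to 1.04 against -0.13 to 0.64 without UVB. Over 10 skeletal muscle markers the sum was 235822 to 295799 after chronic UVB in WT skin, against 810110 to 2056376 without UVB, with no overlap. In the other 5 pairs the ranges overlapped, but the medians were lower after UVB there too. After chronic UVB they were 220001 against 872540 without UVB in NZM skin, and 198991 against 860432 in iNZM skin. Adipocyte marker sums were 29651 to 49049 after chronic UVB in WT skin against 90822 to 150224 without UVB, with 7 of 10 markers called lower. In iNZM skin after chronic UVB 7 of 10 adipocyte, 8 of 10 fibroblast and 7 of 10 myeloid markers were called lower, and the sums were 7942 to 37810 against 28472 to 59871, 5350 to 59883 against 53992 to 107316 and 711 to 7540 against 5943 to 14817, all overlapping. In NZM skin the myeloid sum was 8502 to 33213 after acute against 3339 to 4394 without UVB, and the fibroblast sum 58383 to 108951 after chronic against 15378 to 52825 without UVB, both higher without overlap. The fibroblast score did overlap, at -0.32 to 0.76 after chronic against -1.57 to -0.13 without UVB. The part of these cell types in the clock gene results was not tested. The muscle score, built like the hair follicle score, was -1.23 to -0.82 after chronic UVB and 0.67 to 1.82 without UVB in WT skin. Since these ranges do not overlap, a muscle covariate cannot separate muscle from the regimen there. With the muscle score as a covariate, Hlf stayed called lower in all 6 comparisons and was the only clock gene called lower after chronic UVB, while Per3 and Nr1d2 were called higher after chronic UVB in WT skin. After acute UVB the same covariate ended the iNZM calls of Nr1d1 (-0.95) and Bhlhe41 (-0.48).

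**Figure D2:**
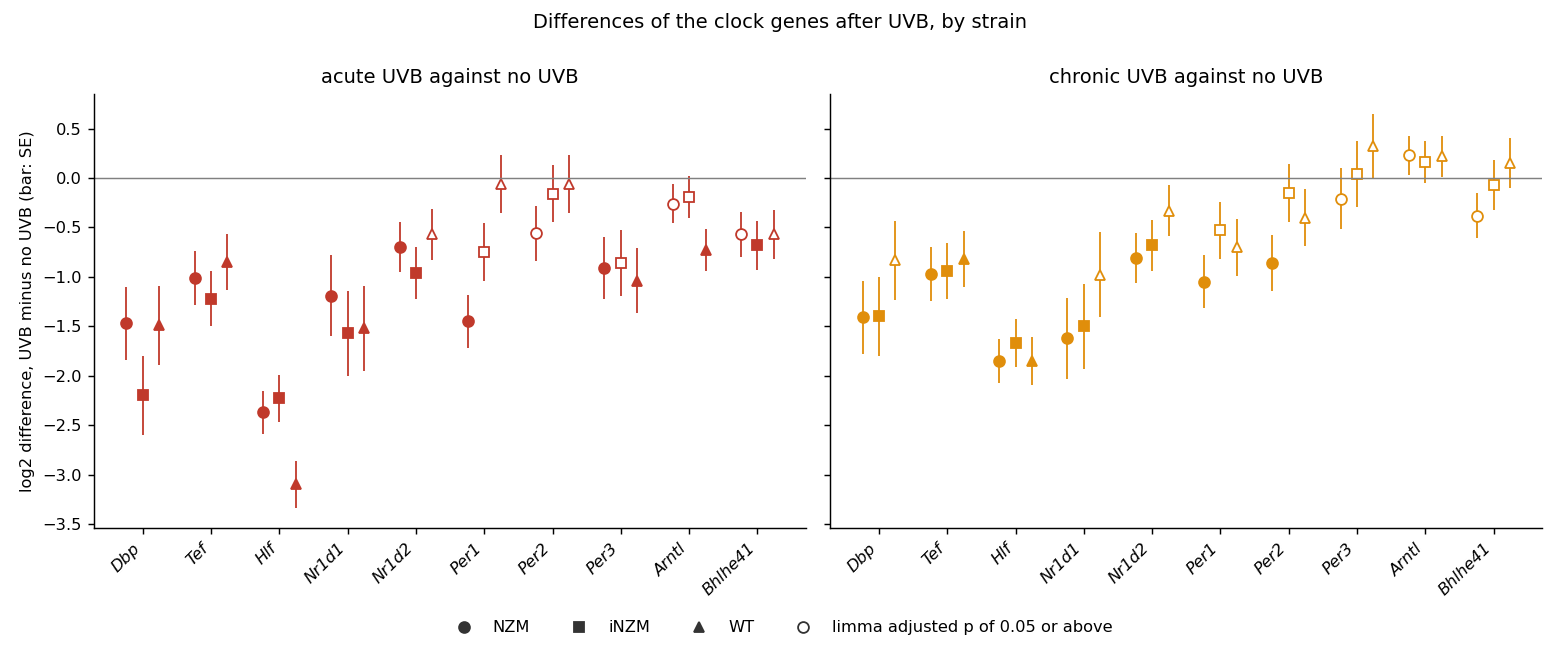
Log2 difference of each clock gene (horizontal axis) between UVB and unexposed skin of the same strain, with standard errors, for acute UVB (left) and chronic UVB (right). Filled symbols passed a limma adjusted p of 0.05. All filled symbols lie below 0, and Hlf lies lowest in both panels, from -3.10 in WT skin after acute UVB to -1.67 in iNZM skin after chronic UVB.

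Hlf, hepatic leukemia factor, had the largest difference of the 10 genes in each of the 6 comparisons with no UVB. In NZM skin Hlf had normalised read counts of 236, 315, 345, 421 and 433 after acute UVB, 365, 373, 375, 751 and 767 after chronic UVB and 1506, 1744, 1787, 1872 and 2029 without UVB. In iNZM skin the counts were 209, 311, 356, 358 and 456 after acute UVB, 420, 423, 479, 481 and 648 after chronic UVB and 1369, 1497, 1514 and 1809 without UVB. In WT skin they were 201, 230, 263, 323 and 351 after acute UVB, 449, 482, 686, 730 and 988 after chronic UVB and 2049, 2072, 2158 and 3074 without UVB. The 30 UVB libraries ranged from 201 to 988 and the 13 unexposed libraries from 1369 to 3074, so they did not overlap; 0.428% of all genes showed such a gap in this direction. After acute UVB the log2 difference was -2.37 ± 0.22 (SE) in NZM, -2.23 ± 0.24 in iNZM and -3.10 ± 0.24 in WT skin (limma adjusted p = 4.93e-09, 2.81e-08 and 1.6e-11). This placed Hlf 5.19-fold lower in NZM, 4.69-fold lower in iNZM and 8.57-fold lower in WT skin than without UVB. After chronic UVB the log2 difference was -1.85 ± 0.22 in NZM, -1.67 ± 0.24 in iNZM and -1.85 ± 0.24 in WT skin (limma adjusted p = 8.2e-07, 1.63e-05 and 2.84e-07). No omission of a single library ended a call of Hlf. Without the 9 libraries with high hair markers, Hlf was still called in all 6, with -2.38 in NZM and -2.43 in iNZM after acute UVB, and -1.23 in NZM and -1.68 in iNZM after chronic UVB. With the muscle score as a covariate the chronic difference in WT skin was -1.86, also called, though that covariate cannot be separated from the regimen there.

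Dbp, the D-box binding protein and a direct target of CLOCK and BMAL1, fell in 5 of the 6 comparisons. Normalised read counts of Dbp in NZM skin were 683, 805, 944, 1116 and 1802 after acute UVB, 537, 760, 1138, 1618 and 1682 after chronic UVB and 2484, 2739, 2814, 2869 and 3062 without UVB. The iNZM libraries had 216, 244, 667, 825 and 1254 after acute UVB, 391, 625, 899, 1288 and 2027 after chronic UVB and 2155, 2239, 2392 and 2740 without UVB. The WT libraries had 733, 1110, 1197, 1295 and 1342 after acute UVB, 1280, 1580, 1778, 2005 and 2301 after chronic UVB and 2306, 2916, 3736 and 3737 without UVB. Within each strain and regimen the UVB libraries lay below all unexposed libraries, and the lowest counts, 216 and 244, belonged to iNZM libraries 49 and 6 after acute UVB, both with high hair markers. The log2 difference after acute UVB was -1.47 ± 0.37 (SE) in NZM, -2.20 ± 0.40 in iNZM and -1.49 ± 0.40 in WT skin (limma adjusted p = 0.00406, 9.1e-05 and 0.00526). For chronic UVB it was -1.41 ± 0.37 in NZM and -1.40 ± 0.40 in iNZM skin (limma adjusted p = 0.00894 and 0.00936). In WT skin the chronic difference of -0.83 ± 0.40 did not pass (limma adjusted p = 0.101), although the groups did not overlap, as was so for 15.0% of all genes in that direction. Leaving out the 9 libraries, the acute differences became -1.33 in NZM and -1.42 in iNZM skin and were still called. The chronic ones became -0.76 in NZM and -0.55 in iNZM skin and were no longer called, with 2 chronic libraries left in each strain. In WT skin, which had none of these libraries, the same difference of -0.83 was called in that fit, which estimates the spread without them.

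Tef, thyrotroph embryonic factor, is the third PAR bZIP gene and fell in all 6 comparisons. After acute UVB the NZM libraries had Tef counts of 1912, 2694, 2906, 3675 and 4232, after chronic UVB 1960, 2273, 2831, 4557 and 4617 and without UVB 5145, 5675, 6196, 6275 and 6730. Counts in iNZM skin were 1428, 1516, 2791, 2810 and 4540 after acute UVB, 1682, 1859, 2828, 4675 and 5056 after chronic UVB and 5210, 5408, 5845 and 5865 without UVB. Counts in WT skin were 3442, 3557, 3923, 4005 and 4320 after acute UVB, 3424, 3654, 3978, 4077 and 4413 after chronic UVB and 5971, 6933, 7345 and 7443 without UVB. UVB libraries reached at most 5056 and unexposed libraries were at least 5145, so for Tef too the 30 UVB and 13 unexposed libraries did not overlap. The log2 differences after acute UVB were -1.01 ± 0.27 (SE) in NZM, -1.22 ± 0.28 in iNZM and -0.85 ± 0.28 in WT skin (limma adjusted p = 0.00568, 0.00151 and 0.0276). After chronic UVB they were -0.97 ± 0.27 in NZM, -0.94 ± 0.28 in iNZM and -0.82 ± 0.28 in WT skin (limma adjusted p = 0.0118, 0.0144 and 0.0222). The size of the difference, at 1.77-fold to 2.34-fold lower over the 6 comparisons, was smaller than that of Hlf in each. The acute call in WT skin ended without WT acute library 13 or 15 or unexposed library 41, 43 or 45, at -0.84 to -0.81. The chronic calls ended without chronic library 55 in NZM skin (-0.81), chronic library 24 in iNZM skin (-0.74), and unexposed library 41 or 43 in WT skin (-0.79). The iNZM chronic call also ended when only the compared groups were fitted. When the 9 libraries were left out, the acute differences were -0.85 in NZM and -0.76 in iNZM skin, both called, and the chronic ones -0.38 and -0.20, neither called. With the muscle score as a covariate, which cannot be separated from the regimen there, the chronic difference in WT skin turned to 0.17 and was not called.

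Nr1d1, which encodes a repressor of Arntl, fell in 5 of the 6 comparisons. In NZM skin Nr1d1 had normalised read counts of 698, 1254, 1392, 1494 and 1698 after acute UVB, 524, 613, 769, 1641 and 1701 after chronic UVB and 2756, 2769, 2793, 2848 and 3115 without UVB. In iNZM skin the counts were 265, 305, 1014, 1165 and 1210 after acute UVB, 208, 660, 795, 1060 and 1243 after chronic UVB and 1812, 1910, 1971 and 2026 without UVB. In WT skin they were 802, 959, 962, 1093 and 1316 after acute UVB, 937, 998, 1579, 1910 and 2478 after chronic UVB and 1479, 3488, 3545 and 3929 without UVB. UVB and unexposed libraries of Nr1d1 overlapped only in WT skin after chronic UVB, where the unexposed library 41 lay low at 1479. The log2 difference of Nr1d1 after acute UVB was -1.19 ± 0.41 (SE) in NZM, -1.57 ± 0.43 in iNZM and -1.52 ± 0.43 in WT skin (limma adjusted p = 0.0337, 0.00726 and 0.00904). After chronic UVB it was -1.62 ± 0.41 in NZM and -1.50 ± 0.43 in iNZM skin (limma adjusted p = 0.00645 and 0.0109), while -0.98 ± 0.43 in WT skin did not pass (0.0755 by the same test). The acute NZM call ended without acute library 1 or 5 or any 1 of the 5 unexposed libraries (-1.20 to -0.98), and the chronic iNZM call without library 24 (-1.08). Both iNZM calls ended when only the compared groups were fitted. The WT chronic difference was called without the 9 libraries. Without the 9 libraries Nr1d1 differed by -0.98 in NZM and -0.77 in iNZM skin after acute UVB, both called, and by -0.77 and -0.75 after chronic UVB, neither called.

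Nr1d2, the paralog of Nr1d1, fell in 4 comparisons, and its log2 difference was smaller than that of Nr1d1 in each of the 6. Normalised read counts of Nr1d2 in NZM skin were 1236, 1827, 1843, 2101 and 2224 after acute UVB, 1137, 1296, 1535, 2326 and 2504 after chronic UVB and 2721, 2753, 2865, 2960 and 3443 without UVB. The iNZM libraries had 811, 996, 1647, 1954 and 2165 after acute UVB, 965, 1116, 1755, 2288 and 3359 after chronic UVB and 2570, 2697, 2755 and 2954 without UVB. The WT libraries had 2042, 2046, 2327, 2609 and 2620 after acute UVB, 2237, 2792, 2835, 2872 and 2974 after chronic UVB and 3044, 3107, 3715 and 3958 without UVB. Acute UVB libraries lay below all unexposed libraries in each strain, and iNZM library 57, at 3359 after chronic UVB, lay above all unexposed iNZM libraries. The log2 difference was -0.70 ± 0.25 (SE) in NZM and -0.96 ± 0.26 in iNZM skin after acute UVB, and -0.81 ± 0.25 and -0.68 ± 0.26 after chronic UVB (limma adjusted p = 0.0405, 0.00716, 0.0222 and 0.0487). In WT skin -0.57 ± 0.26 after acute and -0.33 ± 0.26 after chronic UVB did not pass (limma adjusted p = 0.126 and 0.34), but both were called without the 9 libraries, and the acute one also with the hair covariate (-0.46) and the muscle covariate (-0.49). The acute NZM call ended without acute library 1, 3 or 5 or any 1 of the 5 unexposed libraries (-0.73 to -0.56), and the chronic NZM call without library 17, 55 or 56 or unexposed library 31 (-0.78 to -0.67). The chronic iNZM call stood at the threshold and ended in 32 of 43 omissions of 1 library, among them iNZM chronic libraries 22, 24 and 25 and all 4 unexposed iNZM libraries (-0.71 to -0.48). With the 9 libraries left out, the acute differences were -0.56 in NZM and -0.52 in iNZM skin, both called, the chronic NZM difference was -0.28, not called, and the chronic iNZM difference turned to 0.02, not called. The chronic iNZM call also ended with only the compared groups fitted. The chronic WT difference turned to 0.58 with the muscle score as a covariate, and was then called, but that covariate cannot be separated from the regimen there.

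Per1, a Period gene that is also an immediate target of light, cyclic AMP and glucocorticoid signals in other settings, fell after UVB in NZM skin. After acute UVB the NZM libraries had Per1 counts of 733, 807, 902, 1612 and 1736, after chronic UVB 1158, 1357, 1389, 1496 and 1811 and without UVB 2180, 2820, 3081, 3438 and 3456. Counts in iNZM skin were 883, 1059, 1299, 1546 and 2066 after acute UVB, 903, 1209, 1482, 2083 and 2517 after chronic UVB and 1801, 2255, 2406 and 2435 without UVB. Counts in WT skin were 1777, 2209, 2212, 2279 and 2797 after acute UVB, 656, 1287, 1648, 1673 and 2570 after chronic UVB and 1813, 2237, 2669 and 2676 without UVB. NZM libraries after UVB, at 733 to 1811, lay below all 5 unexposed NZM libraries, while in iNZM and WT skin UVB and unexposed libraries overlapped. The log2 difference in NZM skin was -1.45 ± 0.27 (SE) after acute UVB and -1.05 ± 0.27 after chronic UVB (limma adjusted p = 0.000176 and 0.00813). In iNZM skin -0.75 ± 0.29 after acute and -0.53 ± 0.29 after chronic UVB did not pass, nor did -0.06 ± 0.29 and -0.70 ± 0.29 in WT skin. Without the 9 libraries the NZM acute difference was -1.38, still called, and the NZM chronic difference -1.03, not called. In that fit the WT chronic difference of -0.70 was called, as it was with the hair score as covariate (-0.72), and the iNZM differences were -0.46 after acute and 0.05 after chronic UVB, neither called.

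Per3 fell after acute UVB in NZM and WT skin and after no chronic course. In NZM skin Per3 had normalised read counts of 296, 420, 621, 771 and 779 after acute UVB, 617, 670, 736, 1285 and 1303 after chronic UVB and 654, 947, 1069, 1144 and 1415 without UVB. In iNZM skin the counts were 274, 441, 456, 457 and 835 after acute UVB, 484, 570, 844, 1219 and 1642 after chronic UVB and 640, 764, 874 and 1148 without UVB. In WT skin they were 209, 389, 544, 576 and 598 after acute UVB, 927, 1108, 1120, 1200 and 1263 after chronic UVB and 756, 805, 954 and 1103 without UVB. In WT skin acute libraries lay below both the unexposed and the chronic libraries, and chronic libraries overlapped unexposed ones in every strain. The log2 difference after acute UVB was -0.91 ± 0.31 (SE) in NZM and -1.04 ± 0.33 in WT skin (limma adjusted p = 0.0345 and 0.0202), and -0.86 ± 0.33 in iNZM skin did not pass. The NZM call ended without acute library 3 or 5 or unexposed library 31, 32, 34 or 35 (-0.93 to -0.69), and the WT call without acute library 15 or unexposed library 45 (-0.94 to -0.78). In the fit without those 9, the NZM difference was -0.69 and not called. Chronic differences were -0.21 ± 0.31 in NZM, 0.04 ± 0.33 in iNZM and 0.32 ± 0.33 in WT skin, and the last was 1.05 and called with the muscle score as a covariate. That covariate cannot be separated from the regimen in WT skin. Per2 fell only after chronic UVB in NZM skin among the 6 comparisons, to 257 to 465 against 355 to 1133 without UVB, a log2 difference of -0.86 ± 0.28 (limma adjusted p = 0.0269). The groups overlapped, and the call ended without chronic library 17 or 56 or unexposed library 31, 34 or 35 (-0.86 to -0.66) and without the 9 libraries (-0.49). It also ended when only the compared groups were fitted. Across the other 5 comparisons Per2 differed by -0.56 to -0.06.

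Arntl, the activator of the loop, fell after acute UVB in WT skin and in no other comparison with no UVB. Normalised read counts of Arntl in NZM skin were 214, 234, 240, 258 and 273 after acute UVB, 249, 306, 366, 390 and 437 after chronic UVB and 253, 260, 313, 317 and 326 without UVB. The iNZM libraries had 171, 213, 241, 417 and 444 after acute UVB, 241, 322, 379, 418 and 441 after chronic UVB and 250, 293, 339 and 400 without UVB. The WT libraries had 110, 131, 154, 175 and 177 after acute UVB, 265, 277, 280, 289 and 313 after chronic UVB and 221, 231, 247 and 284 without UVB. WT acute libraries lay below every other WT library, and iNZM acute libraries spread from 171 to 444, across the unexposed range. On the log2 scale the WT difference was -0.73 ± 0.21 (SE, limma adjusted p = 0.00928), which was 1.66-fold lower. Acute UVB gave -0.26 ± 0.20 in NZM and -0.19 ± 0.21 in iNZM skin, and chronic UVB gave 0.23 ± 0.20 in NZM, 0.16 ± 0.21 in iNZM and 0.22 ± 0.21 in WT skin, none of which passed. Without iNZM libraries 6 and 49 and the other 7 libraries with high hair markers, the acute iNZM difference was -0.61 and was called. Bhlhe41 fell only after acute UVB in iNZM skin, to 427 to 715 against 780 to 937 without UVB, a log2 difference of -0.68 ± 0.25 (limma adjusted p = 0.0405). That call ended without acute library 9, 10 or 49 or any 1 of the 4 unexposed libraries (-0.72 to -0.60), and was kept without the 9 libraries (-0.75). It also ended with the hair score as covariate (-0.61). The acute differences of Bhlhe41 were nearly as large in NZM (-0.57 ± 0.23) and WT skin (-0.57 ± 0.25), where they did not pass, and the NZM one was called without the 9 libraries (-0.63).

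The difference between log2(value + 1) of Dbp and of Arntl in a library sets an output gene against the activator of opposite phase and hardly depends on the size factor. It ran from 1.32 to 2.90 after acute UVB, 0.30 to 2.69 after chronic UVB and 2.97 or higher without UVB in NZM skin. In iNZM skin it ran from -0.95 to 2.86 after acute, -0.10 to 2.42 after chronic and 2.48 to 3.45 without UVB. The WT differences were 2.06 to 3.59, 2.27 to 3.04 and 3.31 to 3.91 in the same order of regimens. The SDs of this difference were 0.58 after acute, 1.00 after chronic and 0.22 without UVB in NZM skin, 1.72, 1.13 and 0.40 in iNZM skin, and 0.59, 0.32 and 0.25 in WT skin, in the same order. Without the 9 libraries with high hair markers the NZM range was 1.78 to 2.90 after acute UVB (SD 0.47, n = 4) and 2.46 to 2.69 after chronic UVB (n = 2), and the iNZM range was 1.46 to 2.86 after acute UVB (SD 0.71, n = 3) and 2.41 to 2.42 after chronic UVB (n = 2). In iNZM libraries 6 and 49 after acute UVB and 24 after chronic UVB Arntl exceeded Dbp.

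The regimens were then compared with each other. Chronic UVB libraries were compared with acute ones to ask whether 5 smaller doses differed from 1 large dose, a comparison that uses no unexposed library. In WT skin 4 of the 10 genes were higher after chronic UVB, where 19.6% of all genes were called higher, and none was lower. Arntl was at 265, 277, 280, 289 and 313 after chronic against 110, 131, 154, 175 and 177 after acute UVB in WT skin, or 0.94 ± 0.20 on the log2 scale (SE, limma adjusted p = 0.000265). Per3 differed by 1.36 ± 0.31 and Hlf by 1.25 ± 0.22 (limma adjusted p = 0.000799 and 3.47e-05), and for these and Arntl the chronic libraries lay above all acute ones, as 12.5% of all genes did. Bhlhe41 was higher by 0.72 ± 0.23 (limma adjusted p = 0.0139), with overlap, and its call ended without chronic library 27 or 59 (0.58 to 0.61). Muscle markers summed to 235822 to 295799 after chronic against 791588 to 1328717 after acute UVB in these libraries. With the muscle score as a covariate the differences were 0.49 for Arntl, 2.03 for Per3, 1.24 for Hlf and 1.05 for Bhlhe41, all called. That fit also called Dbp (1.79), Nr1d1 (1.55), Nr1d2 (1.07) and Tef (0.93) higher after chronic UVB. The muscle score was -1.23 to -0.82 after chronic and 0.43 to 1.46 after acute UVB, so the covariate cannot separate muscle from the regimen here either. Basal and spinous keratinocyte markers summed to 1004496 to 2148192 after chronic and 210596 to 444752 after acute UVB. The part of muscle or keratinocytes in the result was not tested.

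In NZM and iNZM skin no clock gene was called between the regimens, where 7.55% and 8.26% of all genes were. At an unadjusted limma p below 0.05 there were 3 genes in NZM skin (Per3, Hlf and Arntl) and 4 in iNZM skin (Per3, Dbp, Hlf and Bhlhe41), all higher after chronic UVB. The share of all genes below that unadjusted cut-off is not given, so these counts cannot be set against it. edgeR called none in either, and DESeq2 none in NZM and 2 in iNZM skin. Per3 differed by 0.69 ± 0.31 (SE) in NZM and 0.89 ± 0.31 in iNZM skin, and Hlf by 0.53 ± 0.22 and 0.56 ± 0.22. Without the 9 libraries the counts of called genes were 1 in NZM (Hlf, 1.15), 5 in iNZM and 7 in WT skin. Shares of all genes called in that fit are not given beside these counts. The 5 in iNZM skin were Bhlhe41, Dbp, Nr1d2, Per3 and Tef, all higher after chronic UVB, with Per3 at 1.58. The 7 in WT skin were the 4 called with all libraries, Dbp (0.66), Nr1d1 (0.54) and Per1, of which Per1 alone was lower after chronic UVB, at -0.64.

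Strains were compared within each regimen to ask whether lupus-prone skin differed from WT skin. After acute UVB, 13.0% of all genes were called between NZM and WT skin, and 2 of the 10 clock genes were. Per1 was at 733, 807, 902, 1612 and 1736 in NZM and 1777, 2209, 2212, 2279 and 2797 in WT skin, or -1.04 ± 0.27 on the log2 scale (SE, limma adjusted p = 0.00775). Arntl was at 214, 234, 240, 258 and 273 in NZM and 110, 131, 154, 175 and 177 in WT skin, a difference of 0.72 ± 0.20 (limma adjusted p = 0.0105). Neither gene overlapped between the strains, as 12.7% of all genes did not, and both calls held without any single library and without the 9 libraries, at -0.98 for Per1 and 0.68 for Arntl. The comparison of regimens in WT skin rests on the same WT acute libraries. Muscle markers summed to 431493 to 810671 in NZM and 791588 to 1328717 in WT skin after acute UVB. Adipocyte markers summed to 17593 to 37049 in NZM and 37461 to 117016 in WT skin, without overlap, with 1 of 10 called lower, and 3 of 10 keratinocyte markers were called higher in NZM skin. The part of these markers in the result was not tested. With the muscle score as a covariate the differences were -0.83 for Per1 and 0.52 for Arntl, both called. Per2 (-0.67) was also called lower in NZM skin with the hair score as covariate.

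After chronic UVB and without UVB no clock gene was called between NZM and WT skin by limma, edgeR or DESeq2, beside 7.88% and 15.0% of all genes by limma. At an unadjusted limma p below 0.05 there were 3 after chronic UVB (Per2, Nr1d2 and Bhlhe41) and 0 without UVB. Shares of all genes at that unadjusted cut-off are not given, here or for iNZM against NZM skin. With the muscle score as a covariate Dbp (-0.71) and Nr1d2 (-0.68) were called lower in NZM skin after chronic UVB. With sample quality weights Per2 (-0.81), Dbp (-0.89), Nr1d2 (-0.78) and Bhlhe41 (-0.67) were. Unexposed Hlf was at 1506 to 2029 in NZM and 2049 to 3074 in WT skin, without overlap (9.66% of all genes lay lower in NZM in this way) but with a log2 difference of -0.37 ± 0.24 that did not pass. Between iNZM and NZM skin no clock gene was called in any regimen by the 3 tools, and 2 had an unadjusted limma p below 0.05, Dbp and Nr1d1 after acute UVB, at -0.97 ± 0.37 and -0.95 ± 0.41. Few genes of any kind differed between these strains, with 0.224% called after acute UVB, 0.428% after chronic UVB and 0.0313% without UVB. Unexposed Nr1d1 was at 1812 to 2026 in iNZM and 2756 to 3115 in NZM skin, without overlap, as for 2.39% of all genes in that direction, and its log2 difference of -0.57 ± 0.43 did not pass.

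Whether the response to UVB itself differed by strain was tested as an interaction, for NZM against WT and iNZM against NZM under each regimen. None of the 40 tests passed, by limma, edgeR or DESeq2. Among all genes, limma called 0.115% for acute UVB and 7.58% for chronic UVB between NZM and WT skin, and 0.00522% and 0.0% between iNZM and NZM skin. The largest of the 40 was Per1 under acute UVB, whose response in NZM skin less that in WT skin was -1.39 ± 0.40 (SE, limma adjusted p = 0.183). Per1 and Hlf, both for acute UVB between NZM and WT skin, were the only 2 with an unadjusted limma p below 0.05. The share of all genes below that cut-off is not given. Sample quality weights gave 1 call, that of Per1 for acute UVB between NZM and WT skin (-1.55), and the muscle covariate 1, that of Nr1d2 for chronic UVB between them (-0.72). Calls in NZM skin that are missing in iNZM or WT skin, such as that of Per1, are therefore not shown to differ between strains by the unweighted fit with no covariate.

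**Figure D3:**
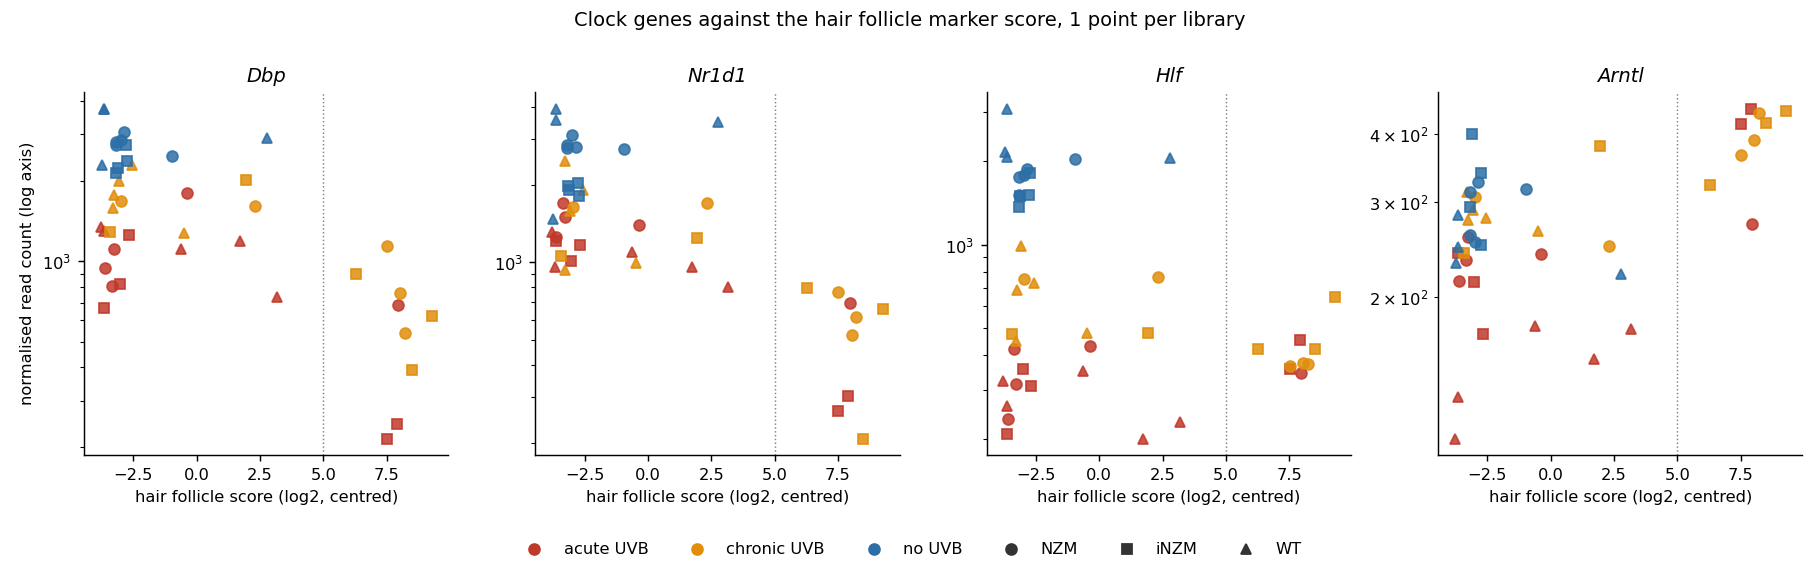
Normalised read count of Dbp, Nr1d1, Hlf and Arntl (vertical log axes) against the hair follicle score (horizontal axis, log2 units centred per gene), 1 point per library, with colour for the regimen and shape for the strain. The dotted line marks a score of 5. For Dbp and Nr1d1 the 9 libraries to its right lie below the other libraries of their own strain and regimen. Hlf is low in all UVB libraries on both sides.

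The 9 libraries with high hair markers differed in the clock genes from the other libraries of their own group. Dbp was 683 in NZM acute library 5 against 805 to 1802 in the other 4, and 216 to 244 in iNZM acute libraries 6 and 49 against 667 to 1254 in the other 3. After chronic UVB it was 537 to 1138 in NZM libraries 17, 55 and 56 against 1618 to 1682 in the other 2, and 391 to 899 in iNZM libraries 22, 24 and 25 against 1288 to 2027 in the other 2. Tef, Nr1d1 and Nr1d2 showed the same separation in all 4 groups, with Nr1d1 at 208 to 795 in iNZM chronic libraries 22, 24 and 25 against 1060 to 1243 in the other 2. Arntl lay the other way in 3 of the 4 groups, at 273 against 214 to 258 in NZM acute, 417 to 444 against 171 to 241 in iNZM acute and 366 to 437 against 249 to 306 in NZM chronic libraries. Hlf did not follow, since it was higher in iNZM acute libraries with high hair markers, at 358 to 456 against 209 to 356, and lower in NZM chronic ones, at 365 to 375 against 751 to 767.

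The same 9 libraries were also low in muscle markers, with a skeletal muscle score of -2.60 to -0.36, against -1.23 to 1.82 in the other 34. All 20 hair follicle markers were detected among NZM and iNZM libraries after UVB, and their sum reached 586880 and 460480 after acute and 659329 and 1528777 after chronic UVB in NZM and iNZM skin, against at most 1728 and 1050 without UVB. With the hair score as covariate, Dbp after chronic UVB differed by -0.59 in NZM and -0.56 in iNZM skin, neither called, and Hlf by -1.78 and -1.60, both called. Across the family, members called after chronic UVB without the 9 libraries were 1 in NZM (Hlf), 1 in iNZM (Hlf) and 6 in WT skin, and those called after acute UVB were 7 in each strain. Shares of all genes called in this fit are not given, so these counts cannot be set against the calling of all genes.

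The other genes of the clock moved less uniformly. Of 17 further genes of the loop and its kinases, ligases and repressors, 1 was higher and 4 lower after acute UVB in NZM skin, 2 and 4 in iNZM skin, and 3 and 1 in WT skin. Of all genes 10.6% were called higher and 10.7% lower in NZM, 12.8% and 12.4% in iNZM, and 10.4% and 11.3% in WT skin. After chronic UVB 0 were higher and 3 lower in NZM, 1 and 4 in iNZM and 5 and 4 in WT skin, where 9.2% and 9.78%, 13.1% and 15.7%, and 18.4% and 16.8% of all genes were. Their median log2 difference in the 6 comparisons ran from -0.04 to 0.18, against 0.00 to 0.04 over all genes, while the 10 members had -0.96 to -0.55. Cry2, a cryptochrome that partners the Period proteins, fell, with a log2 difference of -0.82 ± 0.23 (SE) after acute UVB in NZM skin (limma adjusted p = 0.00806). Cry2 was also called lower after acute UVB in iNZM skin (-0.73), and after chronic UVB in NZM (-1.02), iNZM (-0.72) and WT skin (-0.91). Btrc, a ubiquitin ligase subunit that marks Period proteins for breakdown, fell, with a log2 difference of -0.75 ± 0.19 in iNZM skin after acute UVB (limma adjusted p = 0.00332). Btrc was called lower in all 6 comparisons with no UVB, at -0.80 to -0.63. Nfil3, a repressor that competes with the PAR bZIP factors for D-boxes, rose by 1.44 ± 0.38 on the log2 scale in WT skin after acute UVB (limma adjusted p = 0.00436), and was lower, at -1.56 ± 0.35 after chronic than after acute UVB.

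After chronic UVB, Arntl2, a paralog of Arntl, rose by 2.27 ± 0.51 (log2, SE) in WT skin (limma adjusted p = 0.00075). Csnk1e, the casein kinase that phosphorylates Period proteins, rose by 0.87 ± 0.19 in iNZM skin, and Bhlhe40, the paralog of Bhlhe41, fell, with a log2 difference of -0.85 ± 0.18 there (limma adjusted p = 0.0012 and 0.00126). Between the regimens in WT skin, Rora, an activator of Arntl through the RRE, was higher by 1.39 ± 0.30 after chronic UVB, and Cry1 was lower, at -0.68 ± 0.15 (limma adjusted p = 0.000357 and 0.000361). Csnk1e also rose after chronic UVB in WT skin (0.67 ± 0.19), and Arntl2 rose after acute UVB in NZM (1.40) and WT skin (1.42). Rora was also higher after chronic than after acute UVB in iNZM skin (1.21 ± 0.30). None of the 17 was called between strains or in an interaction by limma.

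Of 10 genes known to run under clock control, 9 were tested. After acute UVB 2 were higher and 3 lower in NZM, 1 and 3 in iNZM and 2 and 2 in WT skin, and after chronic UVB 0 were higher and 5 lower in NZM, 0 and 3 in iNZM and 1 and 3 in WT skin. The shares of all genes called are those given for the 17 genes. Wee1, a cell cycle kinase with E-boxes in its promoter, fell in NZM skin, with log2 differences of -1.46 ± 0.18 (SE) after acute and -1.51 ± 0.18 after chronic UVB (limma adjusted p = 3.06e-07 and 7.3e-07). It also fell in WT skin, by log2 differences of -1.29 ± 0.19 and -1.29 ± 0.19 (3.46e-06 and 3.25e-06 by the same test). In iNZM skin Wee1 fell as well, with log2 differences of -0.86 ± 0.19 and -0.65 ± 0.19 (limma adjusted p = 0.000959 and 0.0122). Lonrf3 rose by 1.56 ± 0.26 in NZM skin and Tfrc, the transferrin receptor, by 0.98 ± 0.17 in WT skin after acute UVB (limma adjusted p = 2.97e-05 and 4.14e-05). Lonrf3 was also called higher after acute UVB in iNZM (1.17 ± 0.27) and WT skin (0.80 ± 0.27). In NZM against WT skin Tsc22d3 and Usp2 were lower after acute UVB, with log2 differences of -1.82 ± 0.41 and -0.95 ± 0.28 (SE, limma), where 5.08% of all genes were. Tsc22d3 is also counted among the glucocorticoid-induced genes below. Without UVB Tfrc was higher (0.84 ± 0.17) and Tspan4 (-1.32 ± 0.38) and Lonrf3 (-0.89 ± 0.27) lower in NZM skin, where 7.47% and 7.49% of all genes were. The log2 response to chronic UVB in NZM skin less that in WT skin was 1.77 ± 0.53 for Tspan4 and -0.79 ± 0.24 for Tfrc, both called, where 7.58% of all genes were.

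**Figure D4:**
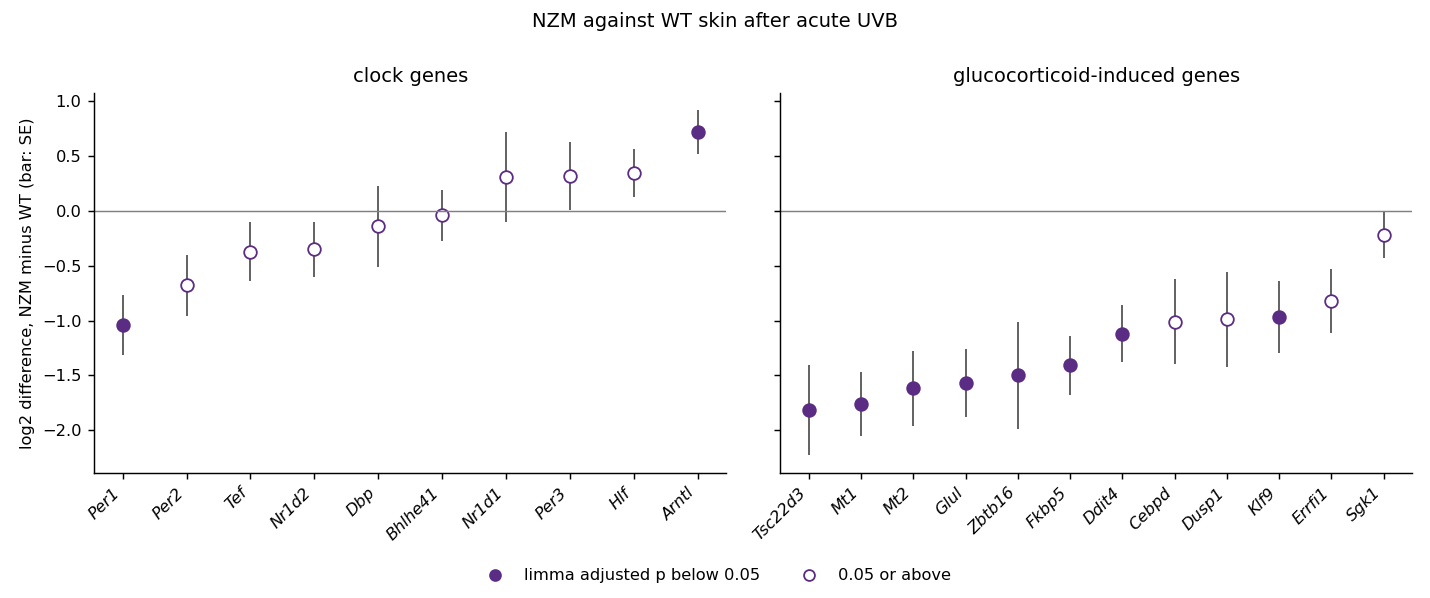
Log2 difference between NZM and WT skin after acute UVB (vertical axis, bars are standard errors) for the 10 clock genes (left) and 12 glucocorticoid-induced genes (right). Filled points passed a limma adjusted p of 0.05. Per1 lies at -1.04 and Arntl at 0.72, and all 12 glucocorticoid-induced genes lie below 0, 8 of them filled.

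Glucocorticoids set clocks in peripheral tissues, partly through Per1, so 12 genes that these hormones induce were listed beside the members. Between NZM and WT skin after acute UVB 8 of the 12 were lower and none higher, where 5.08% of all genes were called lower, and their median log2 difference was -1.26 against 0.02 over all genes. Fkbp5, a co-chaperone of the glucocorticoid receptor, differed by -1.41 ± 0.27 (SE), Glul, glutamine synthetase, by -1.57 ± 0.31 and the metallothionein Mt1 by -1.76 ± 0.29 (limma adjusted p = 0.000314, 0.000413 and 2.82e-05). Against no UVB, acute UVB left 3 of the 12 higher and 6 lower in NZM, 2 and 5 in iNZM, and 4 and 0 in WT skin, beside 10.6% and 10.7%, 12.8% and 12.4%, and 10.4% and 11.3% of all genes. The WT increases were led by Mt2 at 3.65 ± 0.36, Mt1 at 3.17 ± 0.31 and Cebpd at 2.27 ± 0.41 (limma adjusted p = 2.03e-09, 2.03e-09 and 7.5e-05), and the metallothioneins are known to answer to metals and oxidative stress as well. After chronic UVB 0 were higher and 7 lower in NZM, 1 and 4 in iNZM, and 0 and 7 in WT skin, beside 9.2% and 9.78%, 13.1% and 15.7%, and 18.4% and 16.8% of all genes. In WT skin 10 of the 12 were lower after chronic than after acute UVB, where 17.7% of all genes were called lower. Zbtb16, a zinc finger repressor, differed by -2.91 ± 0.49 in NZM and Klf9, a Krüppel-like factor, by -1.66 ± 0.35 in WT skin after chronic UVB (limma adjusted p = 0.000107 and 0.000406). Both were called lower after chronic UVB in every strain. Per1 differed by -0.64 ± 0.27 between chronic and acute UVB in WT skin, which did not pass with all libraries and was called without the 9 libraries and with the hair score as covariate (-0.74). Muscle marker sums differed between these groups too. Their medians were 573565 in NZM and 971722 in WT skin after acute UVB, and 266948 in WT skin after chronic UVB. Whether glucocorticoids or tissue composition had a part in these results was not tested.

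Within groups, Dbp correlated positively with 8 of the other 9 clock genes. Each library's log2 value less its group mean was compared between genes, over the 34 libraries without high hair markers, since the other 9 stood apart as a cluster. Pearson's r with Dbp was 0.73 for Per3, 0.70 for Tef, 0.62 for Nr1d2, 0.60 for Bhlhe41, 0.47 for Nr1d1, 0.44 for Hlf, 0.42 for Per1 and 0.41 for Per2. For Arntl it was -0.11, against -0.69 over all 43 libraries. Among 12370 other genes with a mean of at least 100, the 8 highest with Dbp over all 43 libraries were Cat, Ecm1, Mfsd7a, Pir, Ky, Cry2, Tgm5 and Fam213b, and over the 34 libraries their r lay between 0.34 for Fam213b and 0.76 for Mfsd7a. Cry2, the clock gene among them, had 0.62. The 5 lowest with Dbp, Smarcad1, Phf6, Rnps1, Rad21 and Pitrm1, lay between -0.70 for Rad21 and -0.47 for Smarcad1 and Phf6 in the 34 libraries. For Arntl the 8 highest over all 43 were Cnn3, Epb41l5, Fam107b, Rnf41, Dyrk2, Grhl1, St14 and Rhpn2, at 0.39 for Rhpn2 to 0.63 for Cnn3 in the 34 libraries, and the 5 lowest were Tspo, H2-Q4, Cyp4b1, Psmb8 and RP23-205D10.2, at -0.39 for Tspo to -0.09 for RP23-205D10.2. These values are descriptions over libraries that share scaling and tissue composition, and in the 34 libraries alone the gene most like Dbp was Cyp4f13 at 0.79 and the gene most like Arntl was Nelfb at 0.69.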

How the data were processed

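The authors deposited 1 table of normalised read counts per gene (unit: signal, counts divided by size factors) for all 43 libraries of 151 base paired-end, poly-A RNA sequencing. STAR, HTSeq, DESeq2 and the build mm10 are named in the submitters' processing notes, with versions not given in the sources used here. Dividing each deposited column by the step worth 1 read gave whole reads for 100.0% of values, within 0.01, and size factors of 0.6735 to 1.7503; these recovered read counts served edgeR and DESeq2. The closest pair of libraries within a group differed by a chi-square of 16.9 per gene, so none was a duplicate.

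Testing was limited to genes that reached 10 in 4 or more libraries. limma-trend 3.58.1 (R 4.3.3) was fitted to log2(value + 1), a scale that understates changes of low genes, with 9 group means. Within-strain, between-strain and interaction contrasts were tested, p-values were adjusted by Benjamini-Hochberg over 19170 genes, and 0.05 was the threshold. edgeR 4.0.16 (quasi-likelihood, TMM) called 4261 genes for acute UVB against no UVB in NZM skin where limma called 4097, and DESeq2 1.42.0 was the other count test. The code was tested on simulated data. Libraries were grouped by their titles. Other alternatives were pseudocounts, filters, scalings, sample weights, covariates and leaving out libraries.

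The 10 genes, the gene and marker lists and the tests were chosen with earlier results of these data known. Statistics are given for each of the 10 where it was called, with ranges or differences otherwise; from each other list up to 3 genes per kind of comparison with the smallest adjusted p are named, and the genes most like Dbp and Arntl come from a ranking by Pearson's r. Locations are from GENCODE vM21, promoters from RefSeq.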

Additional observations from a re-analysis of the deposited data

Results flagged for a closer look

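In 5 of 90 groups of 4 or 5 libraries tested, 1 library of a clock gene stood apart from the others of its group by Dixon's criterion, which chance meets in about 1 in 20 groups. Hlf was 648 in iNZM library 25 after chronic UVB, against 420 to 481 in the others. It was 3074 in unexposed WT library 43, against 2049 to 2158 in the others. Nr1d1 was 3115 in unexposed NZM library 34, against 2756 to 2848 in the others. Nr1d2 was 2237 in WT library 28 after chronic UVB, against 2792 to 2974 in the others. Bhlhe41 was 1770 in iNZM library 57 after chronic UVB, against 570 to 796 in the others.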

How the results depend on the processing

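Of 39 calls of a clock gene, 39 were kept with a pseudocount of 0.5 or 8, a filter at 50, TMM scaling or sample quality weights, 38 with no filter, with a term for libraries numbered 46 or higher, with edgeR or with DESeq2, 37 with quantile normalization, and 34 with only the compared groups fitted. A hair follicle score covariate kept 28, a skeletal muscle score covariate 26, the omission of the 9 libraries with a score above 5 kept 28, and a threshold of 0.01 kept 24. For chronic against no UVB, 14 calls became 7 at the threshold of 0.01, 7 with the hair covariate, 5 with the muscle covariate and 8 without the 9 libraries. For chronic against acute UVB, 4 became 12 with the hair covariate, 17 with the muscle covariate and 13 without the 9 libraries. For NZM against WT, 2 became 1 at 0.01, 7 with quality weights (Per1, Per2 and Arntl after acute, Per2, Dbp, Nr1d2 and Bhlhe41 after chronic UVB) and 4 with the muscle covariate (Per1 and Arntl after acute, Dbp and Nr1d2 after chronic UVB). For iNZM against NZM, 0 became 1 with only the compared groups fitted (Nr1d1 without UVB). For the strain difference in the UVB response, 0 became 1 with quality weights (Per1, acute) and 1 with the muscle covariate (Nr1d2, chronic). For these shifts the cause was not tested, and shares of all genes called under these settings are not given. Nr1d2 after chronic UVB in iNZM skin turned to 0.10 with the muscle covariate and 0.02 without the 9 libraries, and Tef after chronic UVB in WT skin turned to 0.17 with the muscle covariate. Leaving out 1 library at a time gave 16 to 22 calls for acute and 11 to 15 for chronic against no UVB, 3 to 6 for chronic against acute UVB, 2 to 3 for NZM against WT, and 0 to 0 for iNZM against NZM and for the strain difference. It kept 25 of the 39 calls under every omission. No paired analysis was possible because no group shares a sample number with another. Every clock gene had at least 124 reads in every library, and whether depth limited these tests was not tested.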
